A study of Mus musculus with 6 samples.

Results

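The genes described here build the centrosome and the primary cilium. They are the 70 rows, of 20764 in the deposited table, whose symbols begin with Cep, Ift, Bbs or Nphp and a number, together with Tctn1, Tctn3, Cenpj, Pcnt and Pcm1. By known role, 39 are centrosome genes, 27 are cilium genes and 4 are other transcripts named after a member. RNA was sequenced from 266.6 cells, a mouse line of acinar tumour type (acinar cells make the digestive enzymes of the pancreas). The CAF_CM group, 3 libraries, was treated with medium conditioned by cancer-associated fibroblasts, and 3 libraries of the same line were labelled Control. All were grown in DMEM HG with 10% FBS and antibiotics. The labels give an exposure of up to 40 days and attach it to the controls as well. The labels do not say that the libraries of a group came from separate cultures, so p-values measure the spread between libraries, which may be technical.

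The centrosome is a pair of centrioles inside a protein matrix from which microtubules grow, and it is duplicated once per cell cycle. In a resting cell the older, mother centriole docks at the plasma membrane by its appendages and becomes the base of the primary cilium, a single sensory projection. Intraflagellar transport (IFT) trains carry cargo along it: IFT-B drives movement to the tip and IFT-A the return. The BBSome, a coat complex assembled with the help of chaperonin-like Bbs proteins, moves membrane receptors, and the transition zone at the base is the gate for what enters and leaves. Normal acinar cells of the pancreas largely lack a primary cilium, whereas duct cells carry one.

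Values are normalized counts, read counts that the authors divided by 1 factor per library. The libraries held 18622370 to 21002226 reads. A gene was tested when it reached at least 10 normalized counts in at least 3 libraries, which 16169 genes and 67 of the 70 members did. The members left out were Cep112it, Cep295nl and Ift88os. The test was limma on log2(normalized count + 1) with Benjamini-Hochberg adjustment over all genes tested, and "higher", "lower" and "called" mean an adjusted p under 0.05 in CAF_CM against control. All 8 acinar markers had rows, and their summed level was 69102 to 71594 normalized counts in control and 38423 to 45150 in CAF_CM libraries. A sum follows its most abundant genes. By gene, 1 of the 8 was higher and 3 were lower (50% called, beside 34.4% of all genes tested). Their median log2 fold change was -0.02. The 7 ductal markers summed to 693 to 737 and 820 to 974. By gene, 2 of the 5 ductal markers tested were higher and 0 lower (40% called, beside the same 34.4%). Their log2 fold changes ranged from -0.09 to 2.97, with a median of 0.18. Of 10 fibroblast markers, Col3a1, Lum and Fap had no row, and the other 7 summed to 3453 to 3659 in control and 3107 to 3609 in CAF_CM. Immune markers (2 of 6 with a row) summed to 88.6 to 105 and 59.7 to 99.7, and endothelial markers (3 of 4) to 197 to 226 and 158 to 191. The part of any of these cell type markers in the results was not tested.

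CAF_CM replicate 1 stood apart from the other CAF_CM libraries in the centrosome genes. The median log2 difference of the 39 genes from their control mean was -0.13 in CAF_CM replicate 1, 0.02 in replicate 2 and 0.04 in replicate 3. For the 27 cilium genes it was -0.04, 0.03 and -0.04, and over all genes tested 0.01, 0.01 and 0.01. Replicate 1 had the lowest of the 3 CAF_CM values for 28 of 39 centrosome genes (71.8%), for 9 of 27 cilium genes (33.3%) and for 35.3% of all genes tested. For the members described below, a log2 fold change that moved by over 1.5 times without this library is also given without it. For Cep19 the difference in each CAF_CM library is given instead. Replicates 2 and 3, which remain without it, are the libraries whose differences from control rose with transcript length over all genes, as given below.

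**Figure D1:**
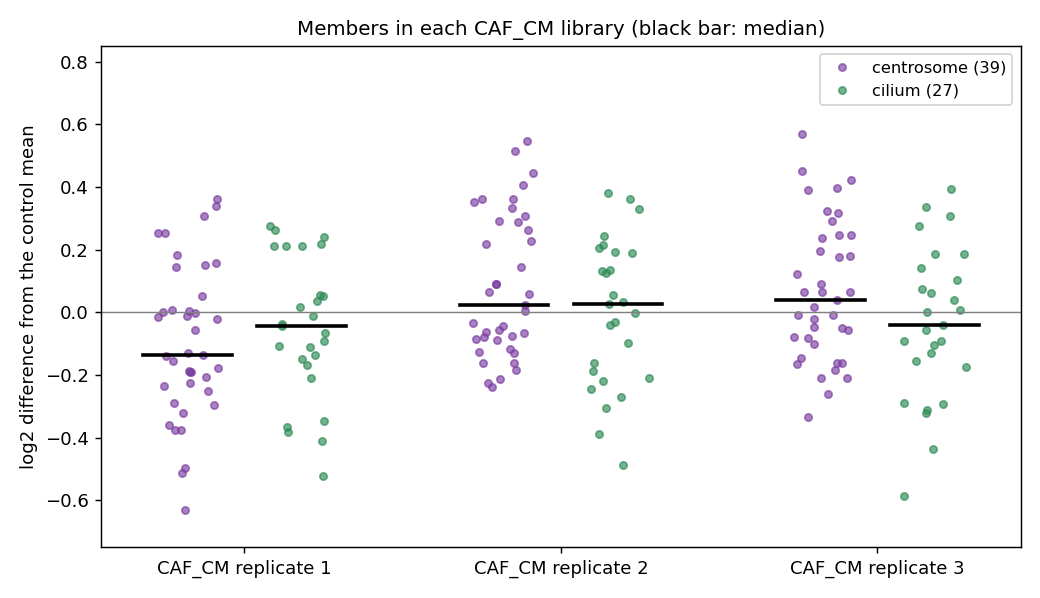
Log2 difference of each centrosome (purple, 39 genes) and cilium gene (green, 27 genes) from its control mean, in each CAF_CM library; black bars are medians. The centrosome median lies at -0.13 in replicate 1 and near 0 in the other libraries, while the cilium medians stay between -0.04 and 0.03.

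The members changed little as a group, and in both directions. Of the 67 tested, 11 were higher and 7 lower in CAF_CM, 18 in all (26.9%), against 34.4% of all genes tested (18.3% higher and 16.1% lower). The control and CAF_CM values did not overlap for 29 of the 67, against 47.7% of all genes. The median log2 fold change was -0.03 for the members and below 0.01 in size for all genes, and the members ranged from -0.44 (Tctn3) to 0.46 (Cep170). In bulk RNA, fewer cells that express a gene and less of its RNA per cell cannot be told apart.

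Centrosome and cilium genes were called in both directions. Among centrosome genes 8 were higher and 3 lower of 39 (28.2% called). Among cilium genes 3 were higher and 4 lower of 27 (25.9%), and among the IFT and BBS genes alone, the transport machinery, 2 were higher and 2 lower of 22 (18.2%). The medians were -0.03 for the centrosome, -0.02 for the cilium and -0.02 for the transport genes on the log2 scale. The centrosome median lay below the cilium median by 0.09 in CAF_CM replicate 1, differed from it by less than 0.01 in replicate 2 and lay above it by 0.08 in replicate 3, so the difference between the classes did not keep 1 direction over the libraries. No test was made of this difference. Without CAF_CM replicate 1 the centrosome genes gave 13 higher and 3 lower, with library totals as the only scaling 6 higher and 6 lower, and without CAF_CM replicate 2 also 6 and 6. The calls over all 16169 genes moved too. In the same order they were 3509 higher and 2943 lower, 2275 and 3177, and 3100 and 2786. With all libraries and the main fit they were 2953 and 2602.

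**Figure D2:**
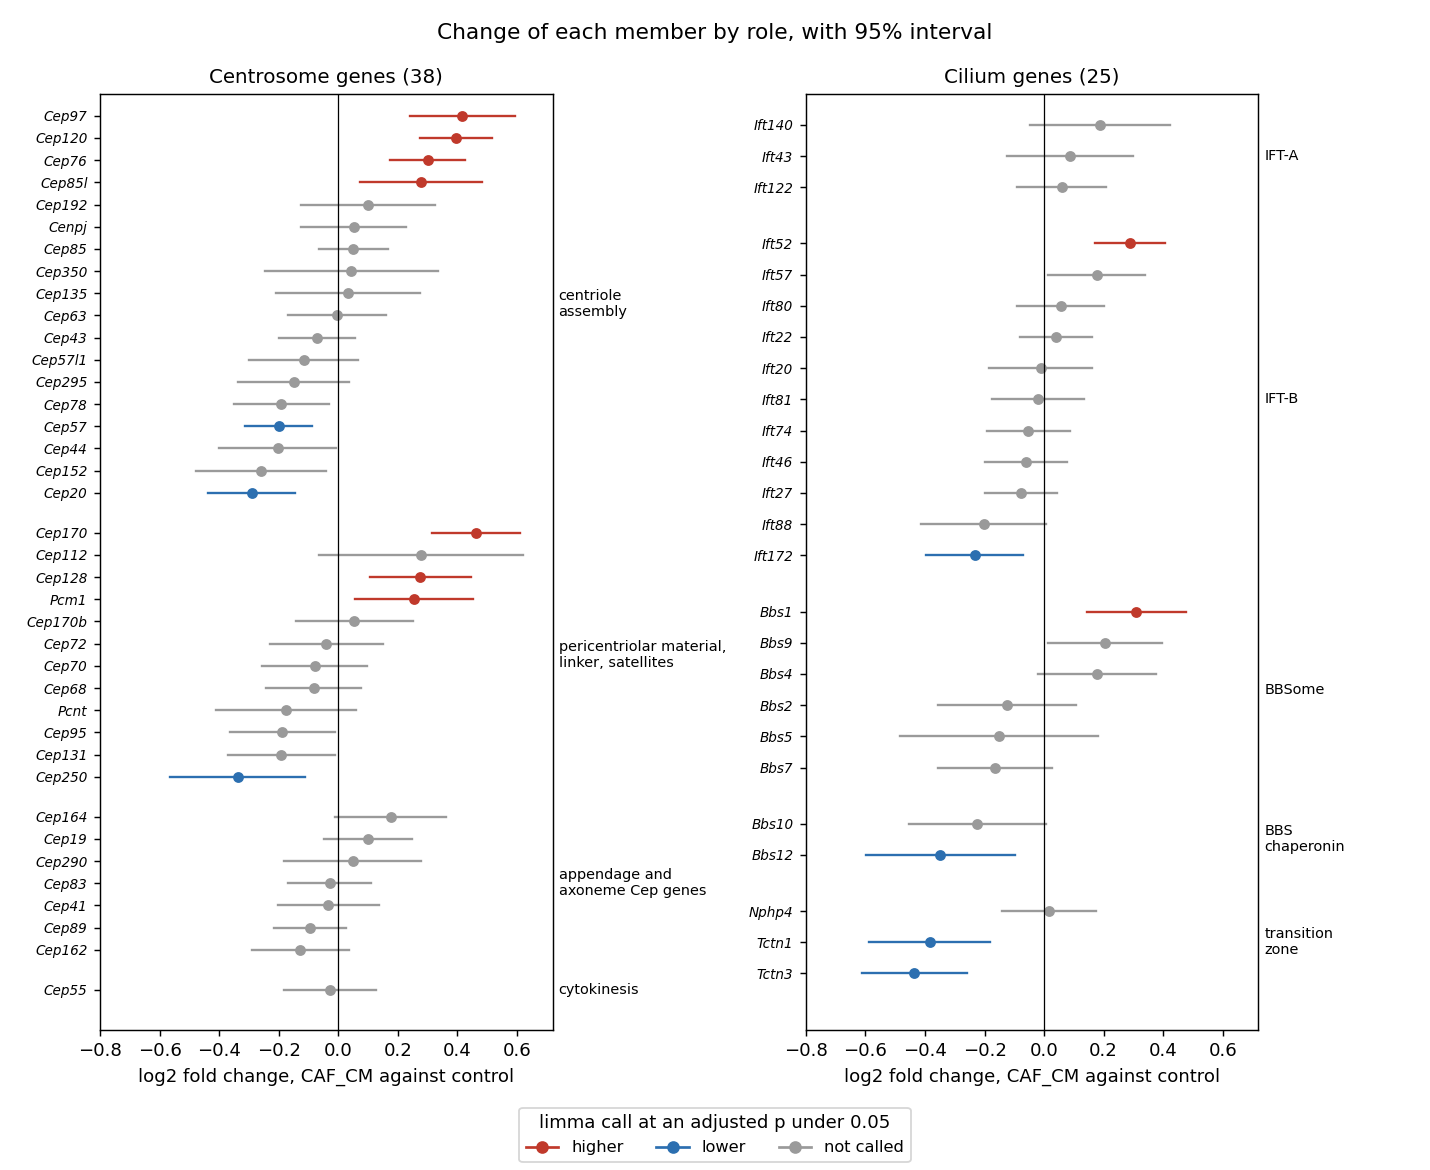
Log2 fold change of CAF_CM against control with its 95% interval (limma) for 38 centrosome genes and 25 cilium genes, grouped by role; red marks genes called higher, blue genes called lower and grey genes not called. Centriole assembly, pericentriolar and IFT-B genes hold calls in both directions, and the intervals of most members include 0.

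Levels can be compared between genes only per length of transcript, here the longest annotated one. The small IFT-B subunits Ift27 and Ift20 led in control cells, with means of 587 and 553 normalized counts per kb. They were followed by Cep57 (476) and the satellite scaffold Pcm1 (443). Cep112 (17.4 per kb) was near the low end of the coding members. The control medians per kb were 164 for centrosome genes, 124 for cilium genes and 151 for all genes tested, so RNA of both structures was present at the level of a typical gene.

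Among the 18 centriole assembly genes, 4 were higher and 2 lower (33.3% called, beside 34.4% of all genes tested). Cep97 forms with CP110 a cap on the distal end of the centriole that blocks outgrowth of a cilium. It had 566, 630.5 and 577 normalized counts in control replicates 1 to 3 and 704, 863 and 807 in the CAF_CM replicates. Every CAF_CM library lay above every control. The means were 591 ± 34.4 and 791 ± 80.4 (SD, n = 3), a log2 fold change of 0.42 ± 0.08 (SE; limma, Benjamini-Hochberg adjusted p = 0.00241).

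Cep120, a protein of growing daughter centrioles that supports their elongation, rose from 935, 999.8 and 990.2 to 1235, 1328 and 1284 normalized counts. The groups were well apart and the CAF_CM libraries close to each other, with a log2 fold change of 0.39 ± 0.06 (SE; limma, adjusted p = 3.79e-04). Cep76, which restrains re-duplication of centrioles, had 680, 670.3 and 680 normalized counts in control and 870, 830 and 804 in CAF_CM. Here CAF_CM replicate 1 was the highest library, not the lowest. The log2 fold change was 0.30 (limma, adjusted p = 0.00233). The fourth gene that rose was Cep85l, by 0.28 (limma, adjusted p = 0.0391). Its call was lost under 8 of 18 alternatives, among them DESeq2, library totals and the length and GC correction, and without any 1 control (adjusted p 0.0872 to 0.135), without CAF_CM replicate 2 (0.0543) or without CAF_CM replicate 3 (0.132).

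Cep20 and Cep57 fell. Cep20, also known as Fopnl, a centriole and satellite protein needed for cilium formation, had a mean of 878 ± 16.6 normalized counts in control and 719 ± 57.6 in CAF_CM (SD, n = 3), a log2 fold change of -0.29 (limma, adjusted p = 0.00623). Cep57, which helps hold the centriole pair together, fell by 0.20 on the log2 scale (limma, adjusted p = 0.0114), a call lost without control replicate 1 (0.061) or control replicate 3 (0.0536). Cenpj, the tubulin-binding protein that sets centriole length together with Cep120, was not called. It had 756, 755 and 770 normalized counts in control and 695, 885 and 796 in CAF_CM, so the groups overlapped, with a log2 fold change of 0.05 and a 95% interval of -0.12 to 0.23 (0.14 without CAF_CM replicate 1, limma, adjusted p = 0.0785).

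Of 12 genes of the pericentriolar material, the linker between centrioles, the satellites and microtubule anchoring, 3 were higher and 1 lower (33.3% called, against the same 34.4%). Cep170, a protein of the subdistal appendages that anchor microtubules, showed the highest fold change of all members. Its values were 2535, 2734 and 2766 normalized counts in control and 3310, 3821 and 3968 in CAF_CM. The lowest CAF_CM library was above the highest control. The fold was 1.38, or 0.46 ± 0.07 on the log2 scale (SE; limma, adjusted p = 4.82e-04).

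Cep128, another subdistal appendage protein, had 397, 381 and 375 normalized counts in control and 424, 494 and 480.3 in CAF_CM. The groups did not overlap and CAF_CM replicate 1 was nearest to control (log2 fold change 0.28, limma, adjusted p = 0.0172). The call was lost without control replicate 2 (adjusted p = 0.0663), control replicate 3 (0.0713) or CAF_CM replicate 3 (0.0612).

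Pcm1, the scaffold of the centriolar satellites (granules that carry proteins to the centrosome), was called with overlapping groups. It had 2774, 3000.4 and 3033 normalized counts in control and 2941, 3699 and 3934 in CAF_CM. Replicate 1 of CAF_CM fell within the control range and the other CAF_CM libraries lay above it. The log2 fold change of 0.25 had an adjusted p of 0.0482 (limma), and the call was lost under 9 of 18 alternatives. These include leaving out any 1 control (adjusted p 0.0877 to 0.177), CAF_CM replicate 2 (0.101) or CAF_CM replicate 3 (0.192, with a log2 fold change of 0.17). Without CAF_CM replicate 1 the log2 fold change was 0.38 (limma, adjusted p = 3.33e-05).

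Cep250, known as C-Nap1, ties the proximal ends of the centrioles together. It fell from 1449, 1398 and 1298 normalized counts to 892, 1180 and 1235. All CAF_CM libraries were below control, CAF_CM replicate 1 by most, and the log2 fold change was -0.34 ± 0.10 (SE; limma, adjusted p = 0.0257). The call was lost without control replicate 1 (adjusted p = 0.105) or control replicate 2 (0.0816). Without CAF_CM replicate 1 the log2 fold change was -0.19 (limma, adjusted p = 0.0134). Pcnt, pericentrin, the large scaffold of the matrix, had steady controls of 2096, 2129 and 2109 normalized counts against 1496, 2015 and 2168 in CAF_CM. Only CAF_CM replicate 1 was far below control, and Pcnt was not called (log2 fold change -0.18, 95% interval -0.41 to 0.06). Without that library its log2 fold change was -0.01 (limma, adjusted p = 0.829).

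Of the 8 Cep genes of the distal appendages, transition zone and axoneme, 1 was higher and 0 lower (12.5% called, beside 34.4% of all genes tested). Cep290, which links microtubules to the membrane in the transition zone, had 587, 603 and 638 normalized counts in control and 517, 673 and 719 in CAF_CM. Its CAF_CM libraries lay on both sides of control, and its log2 fold change of 0.05 (95% interval -0.18 to 0.28) was not called. Without CAF_CM replicate 1 it became 0.19 (limma, adjusted p = 0.0313). With all libraries and the length and GC correction it was -0.04 (limma, adjusted p = 0.651).

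Cep55 acts in the final cut between daughter cells and not at the centriole itself. Its values of 1007, 1071 and 993 normalized counts in control and 1016, 1091 and 912 in CAF_CM overlapped (log2 fold change -0.03, 95% interval -0.18 to 0.13).

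**Figure D3:**
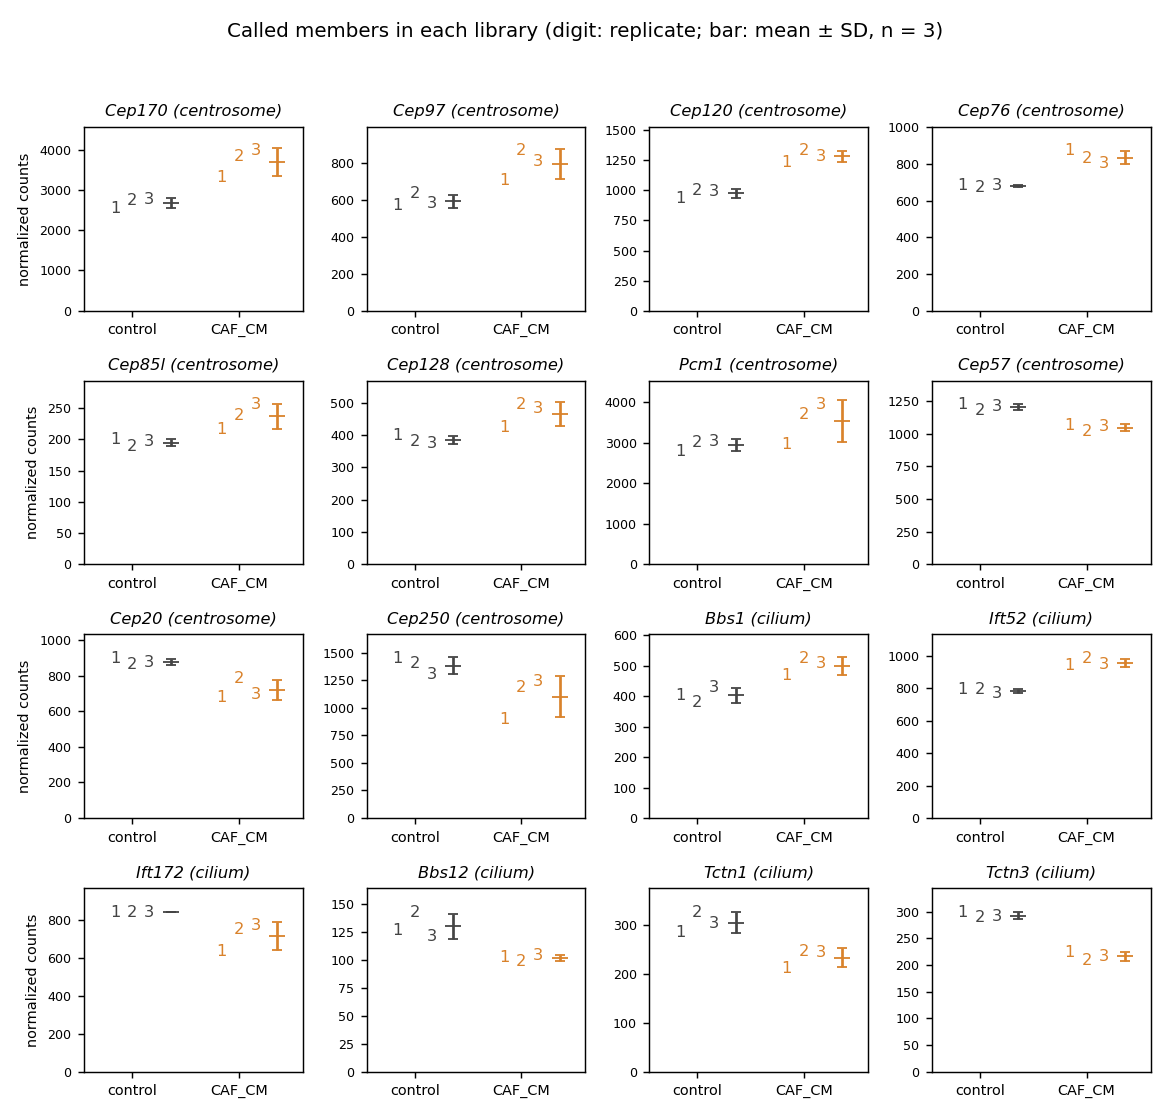
Normalized counts of 16 called members in each control (grey) and CAF_CM library (orange); digits are replicate numbers, bars are mean ± SD (n = 3), and every axis starts at 0. The groups overlap only for Pcm1, and the differences are small beside the levels.

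In the IFT complexes 2 of 14 members were called (14.3%, beside 34.4% of all genes), both of IFT-B. Ift52, a core IFT-B subunit, had 793, 791 and 768 normalized counts in control and 940.1, 985 and 948 in CAF_CM. The libraries within each group lay close together, and the means were 784 ± 13.5 and 958 ± 24.1 (SD, n = 3; log2 fold change 0.29 ± 0.05 SE, limma, adjusted p = 0.00208). Ift172, a peripheral IFT-B subunit, moved the other way, from 842, 842 and 840.5 to 633, 752 and 769 normalized counts. All CAF_CM libraries were below control and replicate 1 was the lowest (log2 fold change -0.23, limma, adjusted p = 0.0321). This call was lost without any 1 of the controls (adjusted p 0.0921 to 0.0978). Without CAF_CM replicate 1 the log2 fold change was -0.15 (limma, adjusted p = 0.0475).

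Ift88, another core IFT-B subunit, whose loss abolishes cilia, had 277, 271 and 261 normalized counts in control and 209, 237 and 259 in CAF_CM. The groups did not overlap, although CAF_CM replicate 3 came within a few counts of the lowest control, and the log2 fold change of -0.20 was not called (limma, adjusted p = 0.122; -0.12 without CAF_CM replicate 1). None of the 3 IFT-A genes was called. Ift122, their most abundant by mean count, had 1030, 1150 and 984 normalized counts in control and 1078, 1051 and 1162 in CAF_CM, with overlapping groups (log2 fold change 0.06, 95% interval -0.09 to 0.21). Ift140 was called higher without CAF_CM replicate 1 (log2 fold change 0.34, limma, adjusted p = 8.92e-04).

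Of the 6 BBSome genes Bbs1 was called and of the 2 chaperonin-like genes Bbs12 (25% of the 8, beside 34.4% of all genes tested). Bbs1, the subunit that binds the small GTPase Arl6, had 402, 378 and 428 normalized counts in control and 466, 524 and 508 in CAF_CM. Every CAF_CM library was above control (log2 fold change 0.31, limma, adjusted p = 0.0091), and the call was lost without control replicate 2 (adjusted p = 0.055). Bbs4, which ties the BBSome to Pcm1, had 180, 167 and 173 normalized counts in control and 201, 190.0 and 197 in CAF_CM. Its groups did not overlap either, and the log2 fold change of 0.18 was not called (limma, adjusted p = 0.154).

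Bbs12, which works with the other chaperonin-like proteins to fold BBSome subunits, had 126, 143 and 121 normalized counts in control and 102, 98.9 and 104 in CAF_CM. The CAF_CM libraries lay close together while the controls spread more (log2 fold change -0.35, limma, adjusted p = 0.0344). The call was lost under 8 of 18 alternatives, among them DESeq2 (adjusted p = 0.106) and leaving out any 1 control (0.0574 to 0.154), CAF_CM replicate 2 (0.0527) or CAF_CM replicate 3 (0.0608).

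Of the 5 transition zone genes proper, 1 was higher and 2 were lower (60% called, beside 34.4% of all genes tested). The falls of Tctn3 and Tctn1 were the strongest among the members tested. Tctn1 and Tctn3 encode tectonic proteins of the transition zone that act in Hedgehog signalling. Tctn3 had 300, 289 and 291 normalized counts in control and 224, 209 and 216 in CAF_CM. It was 1.35-fold lower with a narrow spread in both groups, a log2 fold change of -0.44 ± 0.08 (SE; limma, adjusted p = 0.00182).

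Tctn1 fell from 285, 327 and 305 normalized counts to 212, 247 and 244, with no overlap (log2 fold change -0.38, limma, adjusted p = 0.00843, and 0.052 without control replicate 2). Of its exonic bases 27.5% also belong to Hvcn1 on the other strand, and whether the counting used strand was not given in the sources used here. Hvcn1 itself had at most 4.90 normalized counts in any library. Nphp4, a nephrocystin, was not called.

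Cep83os, a non-coding transcript named after Cep83, was the only one of the 4 other rows with enough counts to test. It had 144, 105 and 129 normalized counts in control and 109, 102 and 124 in CAF_CM, with overlapping groups and no call (limma, adjusted p = 0.401).

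The calls of 8 members held under all 18 alternatives of test, scaling, filter, correction and left-out library. Among them are Cep97, Cep120, Cep76 and Cep170, which rose, Cep20, which fell, and from the cilium Ift52, which rose, and Tctn3, which fell. The sizes moved more than the calls. With the length and GC correction the log2 fold change was 0.26 for Cep97, 0.32 for Cep170, 0.34 for Cep120 and 0.29 for Cep76. It was 0.37 for Ift52 and -0.35 for Tctn3.

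The libraries differed with transcript length. The longest transcript had a median length of 4804 bases for centrosome genes, 3064 for cilium genes and 3030 for all genes tested. Among centrosome genes of at least 4804 bases, CAF_CM replicate 1 was the lowest CAF_CM library for 19 of 20, and among the shorter ones for 9 of 19. The same held over all genes tested, members included: it was the lowest for 68.6% of all genes of at least that length and for 26.2% of shorter ones. Of cilium genes it was the lowest for 6 of 7 long and 3 of 20 short ones. Against control the picture differed. Over the 15538 tested genes with a length, the Spearman correlation of length with the log2 difference from control was 0.006, 0.29 and 0.24 in CAF_CM replicates 1, 2 and 3. For centrosome genes it was -0.23, 0.37 and 0.47, and for cilium genes -0.39, 0.25 and 0.08. Over all genes the length trend against control thus lay in replicates 2 and 3.

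After each library was corrected for transcript length and GC content, the median log2 difference of the centrosome genes from control was -0.08, -0.01 and less than 0.01 in CAF_CM replicates 1, 2 and 3. That of all genes was 0.05, 0.02 and 0.03. The correction gave 7 higher and 7 lower centrosome genes in place of 8 and 3. Over the 15538 tested genes with a length it gave 3503 higher and 2502 lower. Pcnt was then called lower (log2 fold change -0.29, limma, adjusted p = 0.00457), as were Cep152, Cep162 and Cep295, while Cep19 was called higher and Cep85l and Pcm1 lost their calls.

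**Figure D4:**
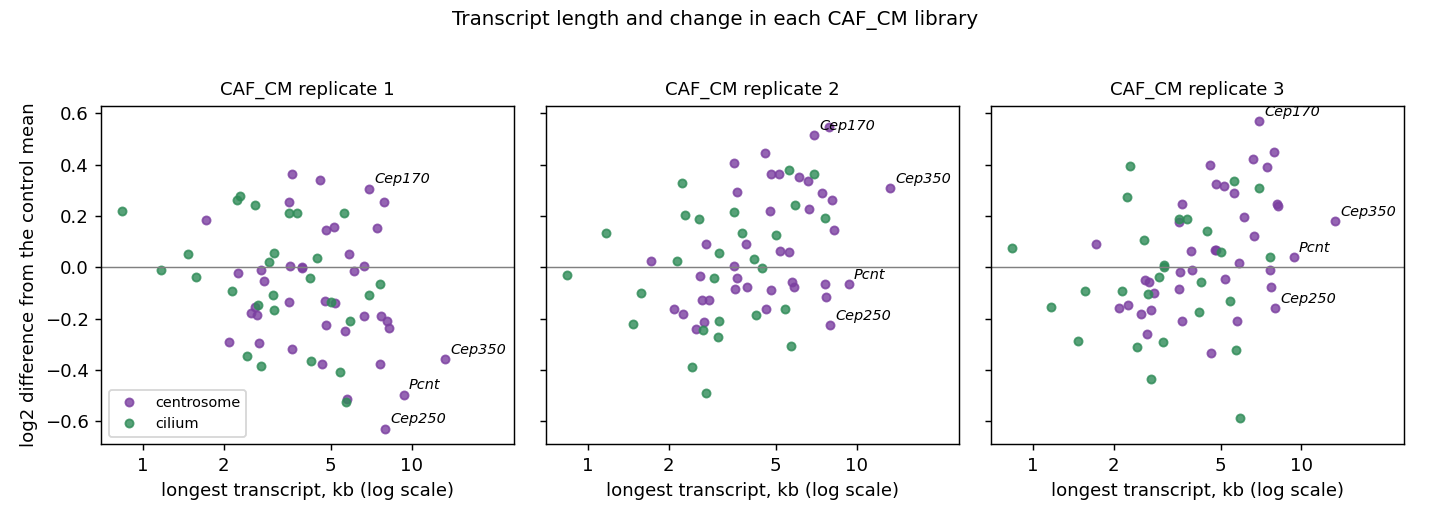
Log2 difference from the control mean against the length of the longest transcript (kb, log scale) for centrosome (purple) and cilium genes (green) in each CAF_CM library. In CAF_CM replicate 1 long centrosome genes such as Pcnt and Cep250 lie far below control. Cep350 lies below control in replicate 1 and above it in replicates 2 and 3, while Cep170 lies above control in every CAF_CM library.

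Promoters were searched because cilium genes are known targets of RFX transcription factors, which bind the X-box, and many cell cycle genes carry a cell cycle homology region (CHR). RefSeq windows from 250 bases before to 50 after the gene start (GRCm38.p6) were matched by symbol for 55 of the 66 centrosome and cilium genes. A gene with several starts has several windows and was counted once if any of them held the motif. The X-box was searched as GTTNCCNNNGNAAC and the CHR as TTTGAA or TTCGAA, both on either strand. The X-box stood in 4 of 55 members (7.27%), against 1.06% of the 10488 tested genes with a window and 0.804% of all 32851 windows. In Bbs7 and Cep112 it lay before the start, and in Tctn1 and Cep19 within the first 50 bases of the transcript. The sequences below run 5′ to 3′ on the strand of the gene, with the motif in capitals. The 4 matches share the fixed letters of the motif because the search required them.
Bbs7, chr3:36613473-36613534, minus strand: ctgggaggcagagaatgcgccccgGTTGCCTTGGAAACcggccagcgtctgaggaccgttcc
Cep112, chr11:108425016-108425063, plus strand: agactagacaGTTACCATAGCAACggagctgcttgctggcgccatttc
Tctn1, chr5:122264411-122264424, minus strand: GTTGCCCGGGCAAC
Cep19, chr16:32099811-32099824, plus strand: GTTGCCTTGGGAAC

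Of these 4 genes only Tctn1 was called, beside 34.4% of all genes tested. The log2 fold changes were -0.17 for Bbs7, 0.28 for Cep112 and 0.10 for Cep19. The log2 difference of Cep19 from its control mean was 0.18, 0.02 and 0.09 in CAF_CM replicates 1, 2 and 3. Rfx3, a factor of the RFX family, rose from 747, 750 and 787 normalized counts in control to 1134, 1160 and 1242 in CAF_CM (log2 fold change 0.63, limma, adjusted p = 4.22e-05).

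The CHR letters stood in windows of 10 of 33 centrosome genes and of 0 of 22 cilium genes, against 16.3% of tested genes with a window and 19.2% of all windows. Of the 10 genes, Cep170 was called, beside 34.4% of all genes tested. It is shown with Cep55, a gene of cell division, and Cep152, a platform for centriole duplication, as 3 of the matches that lie before a start; the Cep55 match lies before 1 of its starts and past another, and the capitals mark the CHR or its reverse complement.
Cep170, chr1:176807155-176807208, minus strand: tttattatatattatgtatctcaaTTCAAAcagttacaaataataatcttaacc
Cep55, chr19:38054984-38055037, plus strand: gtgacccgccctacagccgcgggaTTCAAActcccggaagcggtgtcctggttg
Cep152, chr2:125625235-125625288, minus strand: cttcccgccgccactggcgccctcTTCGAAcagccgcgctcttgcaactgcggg

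A match describes the letters in the window and does not show a bound site, and 6-letter motifs are common.

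The other genes of these pathways were taken from lists by known role. Of 58 other centrosome genes tested, 8 were higher and 9 lower (29.3% called, beside 34.4% of all genes tested), with a median log2 fold change of -0.03. Plk4, the kinase that starts centriole duplication, rose from 1327, 1394 and 1360 to 1758, 1752 and 1890 normalized counts (log2 fold change 0.40, limma, adjusted p = 2.43e-04). Sfi1, a centrin-binding protein of the distal centriole, fell from 480, 451 and 447 to 255, 299 and 320 (-0.66, limma, adjusted p = 3.35e-04). Both changes separated the groups fully. Mib1, a ubiquitin ligase that also acts on satellites, rose by 0.36 on the log2 scale (limma, adjusted p = 3.35e-04).

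Of 31 other cilium transport genes 7 were higher and 3 lower (32.3% called), with a median of 0.05. The IFT-B motor kinesin-II was split: the log2 fold change was -0.32 for its motor subunit Kif3a (limma, adjusted p = 0.00155) and 0.37 for its adaptor Kifap3 (limma, adjusted p = 0.00218). The motor subunit Kif3b was 0.28 higher (limma, adjusted p = 0.00588) and was named after its values were seen. Rabl2, a small GTPase that works with IFT-B, fell by 0.41 on the log2 scale (limma, adjusted p = 0.00163).

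Of 20 other transition zone genes 2 were higher and 5 lower (35% called), with a median of -0.14. Tmem17, a membrane protein of the tectonic complex, fell from 81.9, 74.5 and 86.9 to 34.0, 40.2 and 53.2 normalized counts (log2 fold change -0.94, limma, adjusted p = 0.00233). Inpp5e, a phosphatase of the ciliary membrane, fell by 0.34 on the log2 scale (limma, adjusted p = 0.00374). Ahi1, another protein of the gate, rose from 1100.0, 1098 and 1099 to 1365, 1348 and 1577 (0.38, limma, adjusted p = 0.00123).

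The Hedgehog pathway signals through the primary cilium, and 11 of its genes were tested, of which 3 were higher and 2 lower (45.5% called). Ptch1, the receptor of the ligand and itself a target of the pathway, rose from 784, 834 and 841 to 983, 1158 and 1084 normalized counts (log2 fold change 0.39, limma, adjusted p = 0.00136). Gpr161, a ciliary receptor that restrains the pathway, rose by 0.35 on the log2 scale (limma, adjusted p = 0.00809). Boc, a co-receptor, fell from 96.3, 97.9 and 85.8 to 71.0, 62.7 and 60.7 normalized counts (-0.52, limma, adjusted p = 0.0117; 0.0528 without control replicate 1 and 0.0567 without control replicate 2). All 3 changes separated the groups without overlap.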

How the data were processed

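Total RNA of 6 libraries of 266.6 cells was sequenced after Illumina TruSeq preparation, per the labels' protocols. The deposited table gives 1 signal per gene and library, read counts divided by 1 factor per library by the authors. Dividing each library by the value of 1 read there (0.949 to 1.05) gave whole reads for 100% of values, with a tolerance of 0.001. FastQC, DESeq2 and hg19, a human build, are named in the submitters' processing notes, although the symbols are those of mouse. The sources used here do not give the aligner, the counter or a mouse build. Rows without a symbol (168, 0.153% to 0.261% of reads) stayed out of the tests.

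limma 3.58.1 (R 4.3.3, with variance trend) was fitted on log2(value + 1), which understates changes of low genes, to the 16169 genes reaching 10 in 3 libraries. Alternatives used edgeR 4.0.16 and DESeq2 1.42.0 on recovered reads, other scalings, filters and pseudocounts, limma-voom, group weights, a replicate block, length and GC correction (5-degree splines, 96.1% of genes with a length) and each library left out. Lengths came from the longest GENCODE M21 transcript. The members, roles and lists were chosen with earlier results of these data known. Members were named by role: up to 3 called per role by lowest adjusted p, or the highest mean where none was called, plus Pcnt, Pcm1, Cenpj, Cep290, Ift88 and Bbs4; of each other list, up to 3 called genes. Members given only with a log2 fold change, and Kif3b, were added after their values were seen. Some members, including some this rule names, are not reported here.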

Additional observations from a re-analysis of the deposited data

How the results depend on the processing

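The count of called centrosome genes (11) stayed between 10 and 14 under the alternatives that kept all libraries, and ranged from 7 to 16 when 1 library was left out. It was 7 without any 1 control, where calls over all genes fell too. It was 16 (13 higher, 3 lower) without CAF_CM replicate 1, where calls over all genes rose too. Leaving out that library added Cep164, Cep170b, Cep192, Cep290 and Cep350. With library totals 6 were higher and 6 lower, and the cilium median log2 fold change moved from -0.021 to -0.068; that scaling moved the median of all genes to -0.04. The count of called cilium genes (7) was 6 or 7 with all libraries, 2 to 8 with 1 left out, lowest without control replicate 2, and 4 with the IFT and BBS genes alone, an alternative chosen after seeing the data. With 1 library left out the cilium median ranged from -0.065 to 0.014. The replicate block gave 12 centrosome (8 higher, 4 lower) and 7 cilium genes. Deviations of libraries with the same number correlated at 0.07, 0.03 and 0.03, and those with different numbers at -0.05 to 0.02. These small values do not settle whether the numbers pair the libraries. Of the comparisons of named members with their alternatives, 375 kept direction and side of the threshold, 7 changed sign with no call on either side, 30 lost the call, 2 gained it and 0 changed sign with a call.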

Other observations

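Genes that take the cilium apart as a cell re-enters the cycle included 4 higher and 0 lower of 8 tested (50%), beside 18.3% higher and 16.1% lower among all genes tested, with a median log2 fold change of 0.16. Aurka, the kinase that triggers disassembly and also acts in mitosis, had 1830, 1746 and 1748 normalized counts in control and 2412, 2227 and 2261 in CAF_CM (log2 fold change 0.37, limma, Benjamini-Hochberg adjusted p = 3.35e-04). Nek2, a kinase of centrosome separation, rose by 0.29 on the log2 scale (limma, adjusted p = 7.57e-04), and Plk1 by 0.19 (limma, adjusted p = 0.0127; 0.0598 without control replicate 1 and 0.0638 without control replicate 3). These 3 genes belong to the cell division programme as well. Of 23 mitosis genes tested, a list that shares Aurka and Plk1 with the former, 11 were higher (47.8%) and 0 lower, with a median of 0.15. Kif11, a spindle motor, rose from 3513, 3524 and 3662 to 4584, 4996 and 4857 normalized counts (0.43, limma, adjusted p = 1.18e-04), and Prc1, a spindle midzone protein, by 0.29 on the log2 scale (limma, adjusted p = 0.00164). Of 17 S phase genes 1 was higher, Cdc6 (0.23, limma, adjusted p = 0.0054), and 2 were lower, E2f1 (-0.24, limma, adjusted p = 0.0085; 0.0515 without control replicate 1) and Ccne1 (-0.20, limma, adjusted p = 0.0369). The Ccne1 call was lost without any 1 control (adjusted p 0.0789 to 0.131), without CAF_CM replicate 2 (0.0617) or 3 (0.123), and after length and GC correction (log2 fold change -0.08, 0.297).

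Of 16 motile cilium genes tested, 3 were higher and 2 lower (31.2% called, beside 34.4% of all genes). Rfx3, described above with the X-box, was among those that rose, with the highest log2 fold change of the list (0.63). Ccdc39, which sets the spacing of axonemal arms, fell from 125, 115 and 111 to 66.9, 66.6 and 60.7 normalized counts (log2 fold change -0.84, limma, adjusted p = 4.90e-04), and Rsph9, a radial spoke protein, from 119, 130 and 130 to 95.8, 96.9 and 91.1 (-0.41, limma, adjusted p = 0.0155; 0.0676 without control replicate 2 and 0.0658 without control replicate 3).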
